A study of Mus musculus with 2 samples.

Results

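The comparison is between 2 embryonic stages of late mouse gestation, E16.5 and E18.5 (named by days of development), in hearts from which fibroblasts had been genetically ablated. Its members are the 6672 cells, of 13246 in all, that carried the barcode of an ablated sample, and they came from 4 of the 8 barcoded samples. Ablated samples were Pdgfra-CreER+/-;Rosa-DTA+/-, in which a drug-inducible recombinase is made where Pdgfra, a gene of fibroblasts and other mesenchymal cells, is active, and in which recombined cells make diphtheria toxin fragment A. Controls were Rosa-DTA+/- alone, so that Rosa-DTA is common to both conditions. Cells of each sample were tagged with their own oligonucleotide barcode (MULTI-seq, a lipid-anchored label), mixed and run as 2 pools in 10x Chromium 3′ droplets. Each pool held 1 ablated and 1 control sample of each stage, so stages were compared within a pool, with 2 ablated samples a stage. When and how recombination was induced, and how many embryos stood behind a barcoded sample, are not given in the sources used here.

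In the late fetal mouse heart the muscle cells still divide while they build up mitochondria, and growth mainly by enlargement of muscle cells comes after birth. Cardiac fibroblasts arise largely from the epicardium, the outer cell layer of the heart, and lay down the matrix between muscle cells. Endocardial cells line the chambers, vascular endothelial cells line the coronary vessels, and mural cells (pericytes and smooth muscle) wrap those vessels.

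The 4 barcodes that assigned the cells to a stage and pool are shown because every comparison rests on them. The capitals are the 8 bases of each sample barcode as given in the deposited key.

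Ablated, E16.5, pool 1: GGACCCCA

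Ablated, E18.5, pool 1: TGACCGAT

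Ablated, E16.5, pool 2: CAATCGGT

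Ablated, E18.5, pool 2: GAATCTCG

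Any pair of these 4 barcodes differed at 4 or more positions, and the authors had called every deposited cell single.

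The ablated samples held 1070 cells at E16.5 against 1344 at E18.5 in pool 1, and 2734 and 1524 in pool 2. Their summed UMI counts (unique molecular identifiers, each counted as 1 captured RNA molecule) lay between 12485801 and 32947423. The deposited tables used here give per-cell totals and no gene values, so no gene is named and cell type names could not be checked against markers. As read here, names of the 8 cell types and calls of cell cycle phase cover 1532 ablated cells. All are of pool 1 and make up 63.5% of its ablated cells, 665 at E16.5 against 867 at E18.5. A stage difference of a named cell type therefore rests on 1 sample a stage, has no test, and could not be looked for by name in pool 2. Where a sentence gives a pair of values without naming stages, E16.5 comes first. Limits in parentheses after shares and differences are 95% intervals that cover counting error only, not the spread between hearts. The pools shared 19 cell barcodes, 3 of them between ablated samples.

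In pool 1, the ablated sample of E18.5 held a larger share of fibroblasts, immune cells, vascular endothelial cells, epicardial cells and mural cells than that of E16.5, and a smaller share of ventricular, atrial and endocardial cells. The counting interval of the difference left out 0 for 7 of the 8 types, mural cells being the exception. Shares sum to the whole, so a type can take a larger share because another takes a smaller one, and more cells of a type cannot be told apart from fewer cells of the others.

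Fibroblasts, the ablated type, were 84 of 665 named cells at E16.5, or 12.6% (10.2 to 15.4), and 263 of 867 at E18.5, or 30.3% (27.3 to 33.5). The difference was 17.7 percentage points (13.6 to 21.7), a 2.40-fold larger share. Fibroblasts also held a larger part of the UMIs of the named cells, 13.6% at E16.5 against 31.0% at E18.5. Among cells that were not cardiomyocytes, fibroblasts were 30.3% at E16.5 against 41.8% at E18.5, with a difference of 11.5 points (4.52 to 18.2). In the control samples of pool 1 fibroblasts were 21.1% at E16.5 against 46.1% at E18.5. The ablated stage ratio was 1.10 times the control stage ratio (0.852 to 1.41), an interval that holds 1.

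Ventricular cardiomyocytes, the muscle cells of the pumping chambers, were 321 of the 665 cells at E16.5, or 48.3% (44.4 to 52.1), and 204 of the 867 at E18.5, or 23.5% (20.7 to 26.5). Atrial cardiomyocytes were 67 cells at E16.5, or 10.1% (7.89 to 12.6), and 34 at E18.5, or 3.92% (2.73 to 5.44). Both kinds together were 58.3% of named cells at E16.5 against 27.5% at E18.5, with a difference of -30.9 points (-35.7 to -25.9).

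**Figure D1:**
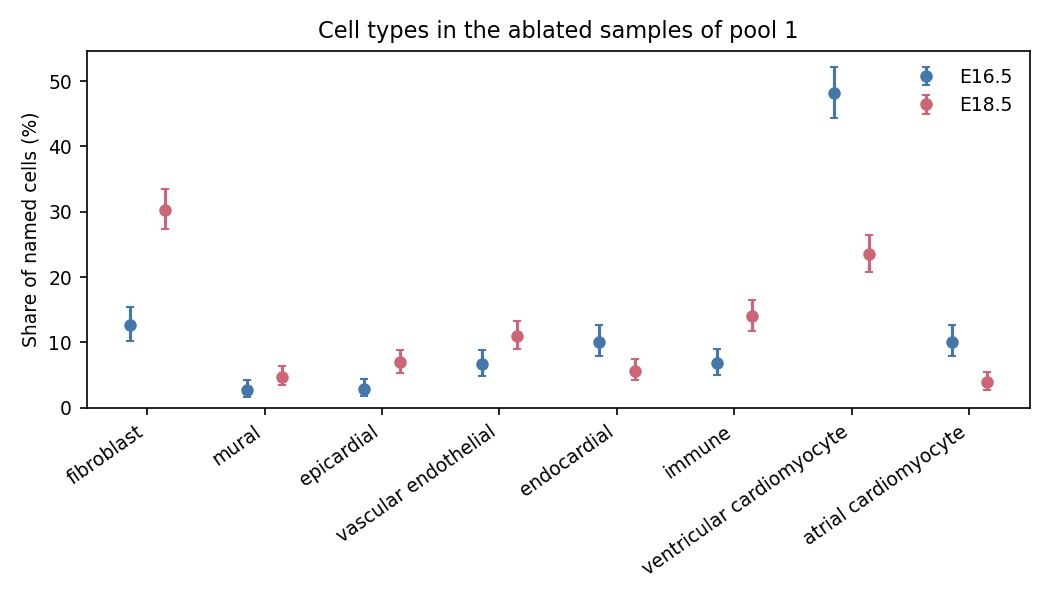
Share of each cell type among the named cells (%, vertical axis) in the ablated samples of pool 1, with E16.5 in blue and E18.5 in red. Points are 1 sample each and bars are 95% exact binomial intervals, which cover counting error only. Fibroblasts were 12.6% at E16.5 against 30.3% at E18.5, and ventricular cardiomyocytes 48.3% and 23.5%.

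As a share of all named cells, most of the difference in ventricular cardiomyocytes lay in clusters with a high share of mitochondrial UMIs. Of the 14 clusters the authors' integrated table assigned to cardiomyocytes, 5 (ventricular clusters 1, 6, 17 and 24 and atrial cluster 21) had a median above 15% over all named cells of both conditions, between 18.8% and 21.9%, and the next highest cluster stood at 8.41%. This grouping was made after the values were seen. The 4 ventricular clusters of this kind held 178 cells at E16.5, 26.8% of named cells (23.4 to 30.3), and 44 cells at E18.5, 5.07% (3.71 to 6.75). The other ventricular clusters held 143 cells, 21.5% (18.4 to 24.8), and 160 cells, 18.45% (15.9 to 21.2), a difference of -3.05 points (-7.22 to 1.07) whose interval holds 0. Single clusters among them went both ways, with 3.57 points (1.33 to 5.76) in cluster 0 and -3.15 points (-5.27 to -1.22) in cluster 8. Of the -24.7 points (-29.5 to -19.9) between the stages, -21.7 lay in the clusters of very high mitochondrial share. Of the atrial difference of -6.15 points, -4.49 lay in cluster 21, and the other atrial clusters differed by -1.66 points (-3.82 to 0.34), an interval that holds 0. Single atrial clusters among them also went both ways. Cluster 36, whose ablated cells had a median mitochondrial share of 12.4%, differed by -2.71 points (-4.24 to -1.53). Clusters 22 and 28 differed by 0.72 points (-0.74 to 2.12) and 0.32 points (-0.75 to 1.31).

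Cells of the very high mitochondrial clusters also had fewer UMIs. Their ventricular cells had a median of 6660.5 UMIs at E16.5 and 5550 at E18.5, whereas the other ventricular clusters had 14771 and 15044.5. A high mitochondrial share with few UMIs is a common sign of damaged cells, and cardiomyocytes are also rich in mitochondria; the part of either in the share was not tested. With these 5 clusters left out, ventricular cardiomyocytes were 31.7% at E16.5 against 19.6% at E18.5, and fibroblasts 18.6% and 32.3%. The ventricular difference was then -12.1 points (-17.3 to -6.91), an interval that leaves out 0. In the control samples of pool 1 both kinds of ventricular cluster held a smaller share at E18.5. The very high ventricular clusters were 20.2% and 2.07% of named control cells, and the other ventricular clusters 25.5% and 6.39%. Atrial clusters of the controls held larger shares at E18.5, with 0.903% and 2.42% in cluster 21 and 2.92% and 4.32% in the others.

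**Figure D2:**
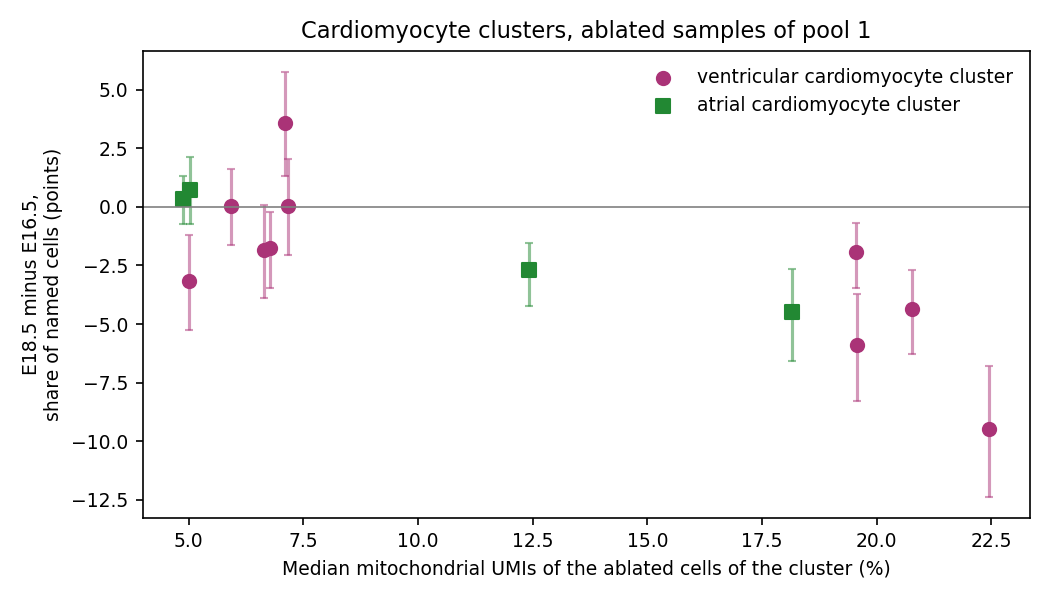
Stage difference in the share of named cells (percentage points, vertical axis) against the median mitochondrial UMIs of the ablated cells (%, horizontal axis) for the 14 cardiomyocyte clusters, ablated samples of pool 1. Circles are ventricular and squares atrial clusters, and bars are 95% intervals for counting error. The 5 clusters farthest to the right have differences below 0, the largest being -9.49 points in ventricular cluster 1.

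Over all types, 13 of the 21 integrated clusters with at least 30 ablated cells differed past 2-fold between the stages, 61.9%, with 28.6% higher at E18.5 and 33.3% lower. The clusters past this limit with the largest fold were ventricular cluster 17, at 4.81% and 0.461%, which held 32 and 4 cells, and atrial cluster 21, at 5.41% and 0.923%. Ventricular cluster 1 was 12.0% and 2.54%, ventricular cluster 6 was 7.52% and 1.61%, and ventricular cluster 8, whose mitochondrial share was not very high, was 5.11% and 1.96%. Endocardial cluster 5 was 6.32% and 2.42%. In the other direction stood epicardial cluster 9, at 2.26% and 6.46%, and immune cluster 12, at 2.41% and 6.34%. Ventricular cluster 0 also had a larger share at E18.5, at 3.01% and 6.57%, or 6.23% and 27.9% of ventricular cells. Fibroblast clusters 25, 3 and 19 had 5.15-fold, 3.67-fold and 2.54-fold larger shares at E18.5. Ventricular cluster 20, at 3.01% and 1.27%, had a smaller one. Outside the fibroblasts, clusters from a single stage among those named here were atrial cluster 36 and mural cluster 32. Cluster 36 held 18 cells at E16.5 against 0 of 867 at E18.5, with an upper limit of 0.425%. Cluster 32 held 0 of 665 cells, with an upper limit of 0.553%, and 14 cells. Both held fewer than 30 cells and were chosen after their values were seen.

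Endocardial cells were 67 of the 665 cells at E16.5, or 10.1% (7.89 to 12.6), and 49 of the 867 at E18.5, or 5.65% (4.21 to 7.40). With cardiomyocytes left out the difference was larger, from 24.2% to 7.79%, or -16.4 points (-22.2 to -10.9). With fibroblasts left out instead it was -3.42 points (-6.96 to 0.083), an interval that holds 0. In the control samples endocardial cells were 8.50% and 7.77% of named cells, and the ablated stage ratio was 0.614 times the control ratio (0.383 to 0.982). With cardiomyocytes left out the controls had 16.8% and 9.16%, a difference of -7.68 points (-10.9 to -4.12).

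Vascular endothelial cells were 44 cells at E16.5, or 6.62% (4.85 to 8.78), and 95 at E18.5, or 11.0% (8.96 to 13.2). With cardiomyocytes left out they were 15.9% and 15.1%, a difference of -0.78 points (-6.33 to 4.32), so the direction depends on the denominator. Mural cells, which wrap the same vessels, were 18 cells, or 2.71% (1.61 to 4.24), and 41 cells, or 4.73% (3.41 to 6.36). Their shares of the cells that were not cardiomyocytes were 6.50% and 6.52%.

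Epicardial cells were 19 cells at E16.5, or 2.86% (1.73 to 4.43), and 60 at E18.5, or 6.92% (5.32 to 8.82), a difference of 4.06 points (1.82 to 6.27). In the control samples epicardial cells were 2.63% at E16.5 against 2.25% at E18.5, with a difference of -0.38 points (-1.65 to 1.29). The ablated stage ratio was 2.84 times the control ratio (1.30 to 6.17), and 2.74 times (1.27 to 5.90) with cardiomyocytes left out of both. Of the cells that were not cardiomyocytes, epicardial cells were 6.86% and 9.54% in the ablated samples, a difference of 2.68 points (-1.57 to 6.39) whose interval holds 0. The same difference in the controls was -2.56 points (-4.42 to -0.38). Atrial cardiomyocytes also had stage differences of opposite sign, -6.15 points in the ablated and 2.92 points in the control samples, with a ratio of stage ratios of 0.221 (0.129 to 0.379). For ventricular cardiomyocytes that ratio was 2.63 (1.94 to 3.58), the share of the control samples being 45.7% and 8.46%. The intervals of fibroblasts, mural, vascular endothelial and immune cells held 1. With 1 sample for each stage and condition, these ratios have no test between hearts.

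Immune cells were 45 cells at E16.5, or 6.77% (4.98 to 8.95), and 121 at E18.5, or 14.0% (11.7 to 16.4). The control samples had 3.24% and 7.60%, and the ablated stage ratio was 0.880 times that of the controls (0.542 to 1.43). With cardiomyocytes left out, the ablated shares were 16.2% and 19.2%, a difference of 2.99 points (-2.74 to 8.29) whose interval holds 0.

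The makeup of the fibroblasts themselves also differed between the stages. Cluster 13 held 28 of the 84 fibroblasts at E16.5, 33.3% (23.4 to 44.5), and 34 of the 263 at E18.5, 12.9% (9.12 to 17.6). Cluster 3 held 22.6% and 34.6%, a difference of 12.0 points (0.0800 to 22.4). Cluster 25 held 8.33% and 17.9%, a difference of 9.54 points (0.316 to 16.7). Cluster 13 therefore had the larger share at E16.5, and clusters 3 and 25 at E18.5.

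The intervals of the other fibroblast clusters held 0. Cluster 19 was 15.5% and 16.3%, cluster 29 was 11.9% and 5.32%, and cluster 38, with 3 and 15 cells, was 3.57% and 5.70%. Cluster 18 had 0 of 84 fibroblasts at E16.5, with an upper limit of 4.30%, and 10 of 263 at E18.5. Of all named cells, its share of 1.15% (0.554 to 2.11) at E18.5 was 2.56 times a floor of 3 cells in the E16.5 sample. That fold is not a lower limit, as the exact upper limit at E16.5 was 0.553%, next to the lower limit at E18.5. Clusters 4 and 27 held 9 and 4 cells over both stages and were below the minimum of 10 cells for separate description.

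**Figure D3:**
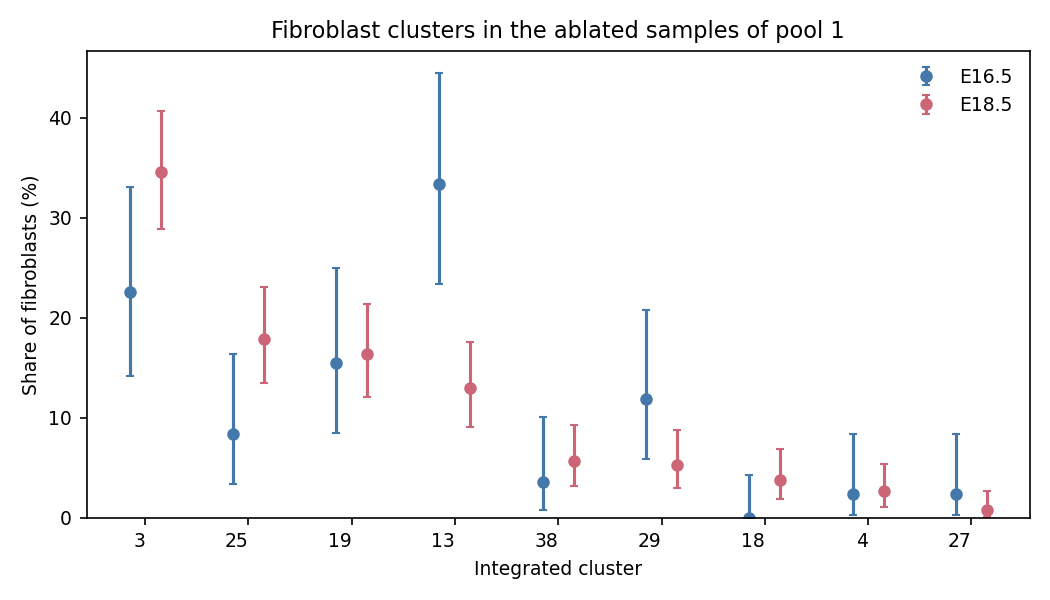
Share of the fibroblasts (%, vertical axis) held by each of the 9 integrated fibroblast clusters (horizontal axis) in the ablated samples of pool 1, with E16.5 in blue (84 cells) and E18.5 in red (263 cells). Bars are 95% exact binomial intervals. Cluster 13 was 33.3% at E16.5 against 12.9% at E18.5, and clusters 3 and 25 had larger shares at E18.5.

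Fewer cells were called in the S or G2M phase at E18.5, that is, as replicating DNA or preparing to divide by the authors' scores. Of all named ablated cells of pool 1, 43.9% (40.1 to 47.8) were so called at E16.5 against 31.8% (28.7 to 35.1) at E18.5. The share was lower at E18.5 in 7 of the 8 types, and the counting interval of the difference lay below 0 in 4 of them. The median S score was lower at E18.5 in 7 of the 8 types and the median G2M score in 5, with epicardial, endocardial and immune cells higher.

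Among fibroblasts 51 of 84 cells, or 60.7% (49.5 to 71.2), were called S or G2M at E16.5, and 102 of 263, or 38.8% (32.9 to 45.0), at E18.5, with a difference of -21.9 points (-34.0 to -9.08). In the control samples the fibroblast shares were 47.8% and 30.3%. All ablated cells of fibroblast clusters 13, 18 and 38 were called S or G2M, and these clusters together held 36.9% and 22.4% of fibroblasts. Outside them the share was 37.7% (24.8 to 52.1) and 21.1% (15.7 to 27.3), so it was lower at E18.5 in the remaining clusters too.

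Among vascular endothelial cells 63.6% (47.8 to 77.6) were called S or G2M at E16.5 against 44.2% (34.0 to 54.8) at E18.5, and among ventricular cardiomyocytes 40.5% (35.1 to 46.1) and 29.9% (23.7 to 36.7). Atrial cardiomyocytes had 34 of 67 cells, 50.7% (38.2 to 63.2), and 3 of 34 cells, 8.82% (1.86 to 23.7), while the atrial cells of the controls had 35.5% and 33.3%. Atrial cluster 36, present at E16.5 alone in the ablated samples, supplied 18 of the 34 calls, since all its cells were called S or G2M. Outside it the ablated atrial share was 16 of 49 cells, 32.7% (19.9 to 47.5), against 3 of 34, a difference of -23.8 points (-40.3 to -4.28), and the controls had 27.7% and 25.7%. Immune cells had 35.6% and 21.5%, with an interval of the difference from -31.2 to 1.99. Endocardial cells had 20.9% and 24.5%, the only type with a higher share at E18.5, and an interval that holds 0 (-12.5 to 20.5). Mural cells, at 55.6% and 34.1%, and epicardial cells, at 47.4% and 26.7%, had fewer than 20 cells at E16.5.

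**Figure D4:**
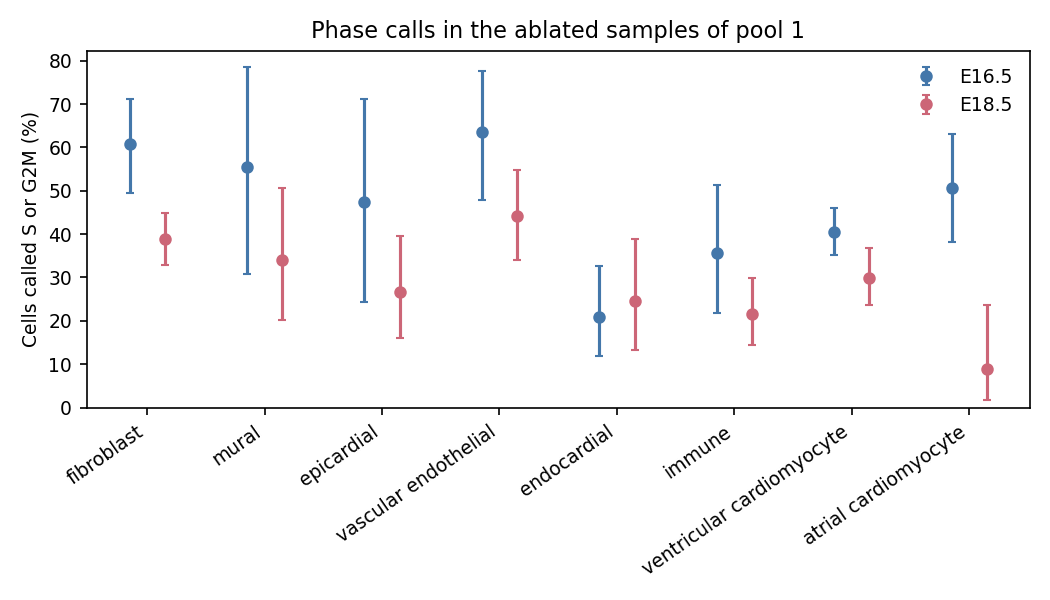
Share of cells called S or G2M by the authors (%, vertical axis) in each cell type of the ablated samples of pool 1, with E16.5 in blue and E18.5 in red. Bars are 95% exact binomial intervals. All types but endocardial cells have the lower point at E18.5, and the fibroblast share was 60.7% at E16.5 against 38.8% at E18.5.

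Phase calls can depend on the UMIs of a cell, which also differed between the stages, and cells could not be thinned to equal depth. Within a window of UMI counts common to both stages, the share was lower at E18.5 in 5 of the 6 types with enough cells. The window did not equalise depth in every type. Median UMIs inside it were 11549 at E16.5 against 7368 at E18.5 in vascular endothelial cells, and 8793 and 13003 in ventricular cardiomyocytes. Atrial cardiomyocytes had medians of 7185.5 and 11337 UMIs, and fibroblasts 8553 and 9517.5. The immune difference in the window was -5.39 points (-26.4 to 9.84), against -14.1 points over all immune cells. Fibroblasts in that window had 60.0% and 35.1%, with 24 and 55 cells left out. The part of free RNA in the phase calls was not tested.

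The number of UMIs per cell differed between the stages in opposite directions in cardiomyocytes and in the other types. Ventricular cardiomyocytes had a median of 8568 UMIs (quartiles 5867 and 15433) at E16.5 against 13077.5 (6634.25 and 18235.5) at E18.5, a ratio of 1.53. Atrial cardiomyocytes had 6551 and 12832.5 UMIs, a ratio of 1.96. The median mitochondrial share of these cells was 11.7% and 7.88% in ventricular and 14.6% and 5.25% in atrial cardiomyocytes. Within both parts of the ventricular cells it was instead higher at E18.5. It was 19.5% and 27.8% in the very high mitochondrial clusters, and 5.64% and 7.13% in the other ventricular clusters. In atrial cluster 21 it was 16.3% and 23.1%, and in the other atrial clusters 9.01% and 4.65%. Outside the very high mitochondrial clusters the ventricular UMI medians were close, 14771 and 15044.5. The higher UMI median of all ventricular cells thus went with fewer cells of those clusters. Outside cluster 21 the atrial medians were 11197 and 15836.5 UMIs, over 31 and 26 cells.

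Vascular endothelial cells had 13042.5 UMIs at E16.5 against 6949 at E18.5, a median 1.88-fold lower, and in the controls it was 2.20-fold lower. Mural cells had 14434 and 8154 UMIs, immune cells 7684 and 4783, and epicardial cells 13472 and 9980.5. Fibroblasts, at 9538.5 and 9515 UMIs, and endocardial cells, at 8711 and 8245, had medians that lay within 1.06-fold of each other. Median mitochondrial shares of the types other than cardiomyocytes lay between 1.37% and 2.32% at both stages.

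Over all cells, which both pools cover, the stage difference of the median UMIs and genes had the same sign in the pools and that of the median mitochondrial share did not. Means per sample in place of medians differed in sign between the pools, by -1400.0 UMIs in pool 1 and 1399 in pool 2, and by -141 and 65.7 genes. The median was 8873 UMIs at E16.5 against 8980.5 at E18.5 in pool 1, and 10501 and 12295 in pool 2. The mean of the sample medians was 9687 ± 1151 (SD, n = 2) and 10638 ± 2344 (SD, n = 2), a difference of 951 (two-sided exact permutation test, p = 0.667, 0.667 after Benjamini-Hochberg adjustment over 4 measures). The test has 6 reassignments of the samples and cannot give a p below 0.333. The median number of genes detected was 3141 and 3270 in pool 1, and 3438 and 3735.5 in pool 2 (exact permutation test, p = 0.667, adjusted 0.667). The mean of the gene medians was 3289.5 ± 210.0 (SD, n = 2) at E16.5 and 3503 ± 329 (SD, n = 2) at E18.5.

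The median mitochondrial share was 5.36% at E16.5 against 1.91% at E18.5 in pool 1, and 3.48% and 3.94% in pool 2. Cells above 5% mitochondrial UMIs were 52.6% (49.6 to 55.6) and 26.1% (23.8 to 28.6) in pool 1, and 36.9% (35.1 to 38.7) and 42.7% (40.2 to 45.2) in pool 2. The stage differences of -26.5 points (-30.3 to -22.6) and 5.81 points (2.71 to 8.92) thus had opposite signs, and both intervals left out 0 (exact permutation test over the 4 samples, p = 0.667, adjusted 0.667, for this share and for the median mitochondrial share). At a limit of 10% the share was lower at E18.5 in both pools, 33.1% and 9.23% in pool 1 and 16.2% and 13.8% in pool 2. At 15% it was 25.2% and 6.47% in pool 1, and 9.99% and 10.1% in pool 2.

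The stage difference was also set against that of the controls, which shared the pools. Ablated minus control, the stage difference of the UMI median was larger by 1591.5 in pool 1 and by 1225.5 in pool 2 (exact permutation of the condition within pool and stage, p = 0.375, adjusted 0.833). For the share above 5% mitochondrial UMIs it was higher by 7.34 and 11.8 points (p = 0.625, adjusted 0.833, same permutation test). For the median mitochondrial share it was -0.45 points in pool 1 and 0.71 in pool 2 (p = 1, adjusted 1, same permutation test). At a limit of 10% it was -4.43 and 3.95 points, so that here the pools differed in sign. This test has 16 reassignments and cannot give a p below 0.125.

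To look for cell type differences in pool 2, where no names were used, the clusters of each pool were split by their own median mitochondrial share at 5%, a rule set after the values were seen. In each pool 5 of 15 clusters lay above it, at 7.78% to 13.5% in pool 1 and 5.69% to 7.41% in pool 2, and the others lay at or under 2.39% and 2.18%. In pool 1, 385 of 386 named ablated cells of the high clusters were cardiomyocytes at E16.5 against 237 of 239 at E18.5. The high clusters of pool 2 carry no names here, and their cell type was not tested.

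The share of cells in the high clusters differed in opposite directions in the pools. It was 57.9% (54.8 to 60.8) and 26.9% (24.5 to 29.3) in pool 1, and 49.9% (48.0 to 51.7) and 54.7% (52.1 to 57.2) in pool 2. The differences were -31.0 points (-34.8 to -27.1) and 4.81 points (1.64 to 7.96). The lower cardiomyocyte share and the higher share of the other types seen at E18.5 in pool 1 therefore had no counterpart in pool 2 by this grouping. In the controls the high clusters were 49.4% and 13.4% in pool 1, and 27.3% and 22.4% in pool 2.

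The UMIs per cell of the high clusters, in contrast, were higher at E18.5 in both pools. The median was 8366 and 13097 in pool 1, a ratio of 1.57, and 10584 and 15736 in pool 2, a ratio of 1.49. Each of the 10 high clusters had a higher median at E18.5, against 6 of the 18 low clusters with at least 10 cells a stage, and over all 28 clusters 57.1% did. The mitochondrial share of the high clusters was lower at E18.5 in pool 1, with medians of 12.1% and 7.59%, and was 6.59% and 6.81% in pool 2. Without cells above 10% mitochondrial UMIs the ratio was 0.955 in pool 1 and 1.35 in pool 2, so at that limit the pools differed in direction. Without cells above 15% it was 1.12 and 1.43. In the controls it was 1.09 and 1.31 at the 10% limit. Inside single ventricular clusters of the integrated table, read here for pool 1 only, the median UMIs went both ways. Clusters 1, 6, 7, 8 and 20 had ratios of E18.5 to E16.5 of 0.851, 0.856, 0.978, 0.957 and 0.893. Clusters 0, 10 and 16 had ratios of 1.07, 1.30 and 1.03. The part of cluster makeup in the higher UMIs of the high clusters was not tested. In the low clusters the median was 9493 and 8357 UMIs in pool 1, 1.14-fold lower, and 10329 and 9403 in pool 2, 1.10-fold lower.

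**Figure D5:**
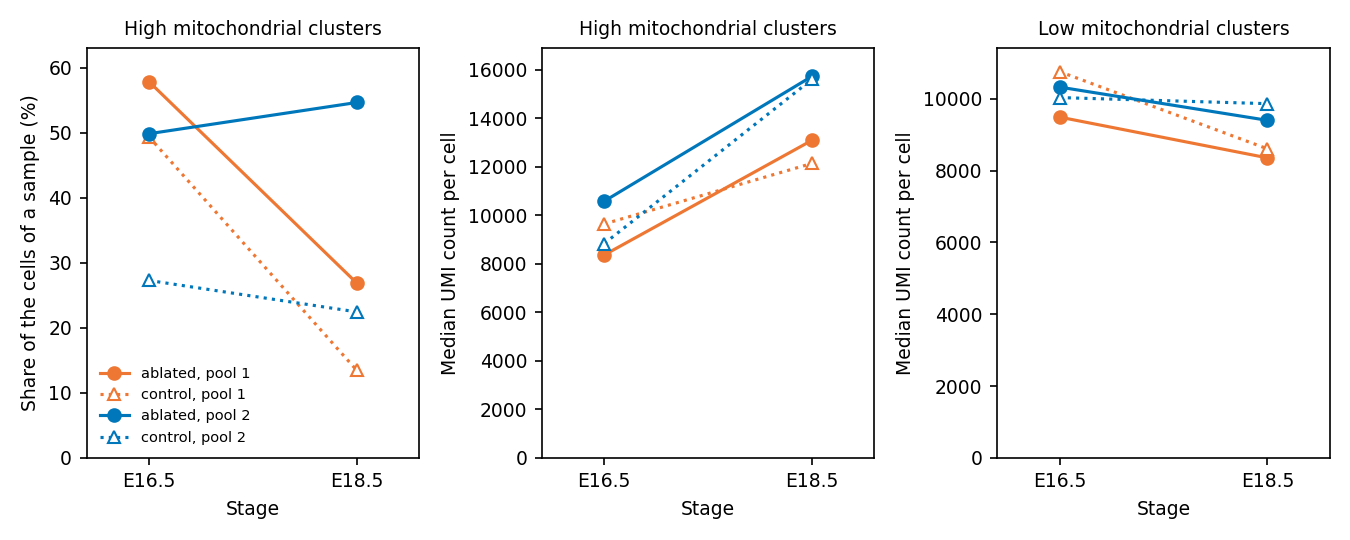
Share of a sample's cells in clusters whose median mitochondrial share is above 5% (%, left), median UMI count per cell of these clusters (centre) and of the other clusters (right), at each stage. Filled circles with solid lines are ablated and open triangles with dotted lines control samples, orange for pool 1 and blue for pool 2. The ablated share was 57.9% and 26.9% in pool 1 but 49.9% and 54.7% in pool 2, while the UMI count of the high clusters was higher at E18.5 in both.

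Single clusters, whose numbers are made within a pool and do not match across pools, were past 2-fold more often in pool 1 when counted over all cells of a sample. Past this limit were 7 of 13 clusters of at least 50 ablated cells in pool 1, 53.8%, with 30.8% higher and 23.1% lower at E18.5. In pool 2 there were 2 of 14, 14.3%, with 7.14% higher and 7.14% lower. Counted within the high or within the low mitochondrial clusters, a denominator added after the values were seen, 2 of 13 were past 2-fold in pool 1 and 2 of 14 in pool 2. In pool 1 these were clusters 5 and 13, both of low mitochondrial share, at 3.21-fold and 2.34-fold smaller shares of the low clusters at E18.5. Of their named cells, 114 of 118 in cluster 5 were endocardial, and all 33 in cluster 13 were vascular endothelial. Cluster 2 of pool 1, of whose 235 named cells 232 were fibroblasts, was 6.73% and 22.2%. Cluster 7, all of whose 104 named cells were vascular endothelial, was 3.46% and 9.08%, and cluster 11, with 79 epicardial of 84 named cells, was 3.08% and 7.96%. Vascular endothelial cluster 13 went the other way, at 2.80% and 2.08% of all cells, with an interval of the difference that holds 0. The ventricular clusters 3, 4 and 10 were 19.1% and 5.51%, 12.5% and 3.72%, and 5.14% and 1.26%.

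In pool 2, cluster 8 was 1.17% and 3.15%, a 2.69-fold larger share at E18.5, and cluster 3, of high mitochondrial share, was 12.6% and 6.04%, a 2.09-fold smaller one. Cluster 2 was 8.92% and 5.58%, and cluster 7 held 164 of 2734 and 47 of 1524 cells, a 1.95-fold smaller share at E18.5. Cluster 10, of high mitochondrial share, was 3.73% and 6.04%. Cluster 12 was 2.19% and 3.87% and held cells with few UMIs, with medians of 1360 and 911.

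Of the stage differences by cell type seen in pool 1, none could be examined by name in pool 2. By mitochondrial grouping, the higher UMI count of the high clusters and the lower count of the other clusters had the same direction in both pools, and the difference in their shares did not. Inside single ventricular integrated clusters of pool 1 the median UMIs went both ways. Without cells above 10% mitochondrial UMIs the ratio of the high clusters was 0.955 in pool 1, in the opposite direction, and without cells above 15% it was 1.12. In the controls the UMI ratio of the high clusters was likewise above 1, at 1.26 in pool 1 and 1.77 in pool 2, so this direction was not particular to the ablated hearts.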

How the data were processed

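Cells of 8 barcoded samples were measured in 2 pools. The submitters' processing notes name Cell Ranger (version 7.1.0) with build GRCm38 of the mouse genome. Settings for cell filters, clustering and integration are not given in the sources used here. Each cell has a deposited raw UMI count, a count of genes and a percent of mitochondrial UMIs, per the file headers. The authors also deposited an S score and a G2M score with a phase call, cluster numbers and cell type names. The lowest UMI count was 501, the lowest gene number 321 and the highest mitochondrial share 39.9%. The integrated table was cut off in mid-row, with 4546 whole cells that all belong to pool 1; the rest was not analysed here.

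UMI counts, numbers of cells and shares were computed with Python 3.11.15, numpy 2.4.6, scipy 1.17.1 and pandas 2.3.3. Intervals of shares are exact binomial (Clopper-Pearson, 95%), and limits of differences were combined from them by square-and-add. A count of 0 was set against a floor of 3 cells over the sample, beside its exact upper limit. The intervals were tested on simulated data with the observed shares. Medians per sample were compared by two-sided exact permutation tests, and the labels do not say whether samples were separate animals, so p-values reflect only how these samples vary, and that may be technical. Equal pool numbers pair the samples, since the deposited key puts them in the same library, and the pool as a block was an alternative. Phase calls could be read here for pool 1 only, so the planned phase and score measures over both pools were not made. Thus 4 measures were tested. No doublet caller was run, as no gene values were used and no cell was called other than single. The cell types, clusters and comparisons were chosen with earlier results of these data known. Items named were every cell type, fibroblast clusters of at least 10 ablated cells, the 8 other integrated clusters of at least 30 cells with the largest fold, and the 6 clusters of at least 50 cells with the largest fold in each pool. Ventricular clusters 0 and 20, also past 2-fold, were added after the values were seen. Alternatives were other denominators, removal of cells by mitochondrial percent or UMIs, means in place of medians, names weighted to all cells of the pool, a window of UMIs and samples left out in turn.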

Additional observations from a re-analysis of the deposited data

Results flagged for a closer look

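The epicardial share had stage differences of opposite sign in the ablated and the control sample of pool 1, 4.06 points against -0.38 points. The atrial cardiomyocyte share did so too, at -6.15 points in the ablated and 2.92 points in the control sample. Outside cluster 21 the ablated difference was -1.66 points, with an interval that holds 0, and in cluster 36 alone it was -2.71 points. With 1 sample for each stage and condition the difference between ablated and control samples was not tested.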

How the results depend on the processing

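Over 29 results and 97 alternative values, 6 reversed, 8 moved and 83 kept their direction within a tolerance, which was the counting interval for shares, 1.5 times for counts and the test's threshold for sample medians. That tolerance is wide: the mural difference was 0.020 points with cardiomyocytes left out against 2.02, and the UMI difference 136.75 without the E16.5 sample of pool 1 against 951. With the pool as a replicate block the differences were unchanged, and p was 0.5 for UMIs and genes (the smallest the 4 reassignments allow) and 1.0 for the mitochondrial measures. Neither this test nor the main one can give a p below 0.05 with these samples, so no call could have changed. Leaving out a sample gave -706.5 to 2608 UMIs and -19.5 to 446 genes, and both turned without the E18.5 sample of pool 2. For the mitochondrial median it gave -2.51 to -0.48 points, and for cells above 5% -18.6 to -2.04 points. Leaving out 1 sample breaks the pairing by pool, so it does not show that these signs are stable. Within pools 1 and 2 the differences were -3.45 and 0.45 points for the median, and -26.5 and 5.81 points for cells above 5%. Means in place of medians gave -0.65 UMIs and -37.6 genes. With cardiomyocytes left out, differences were 11.5 points for fibroblasts, -0.78 for vascular endothelial, -16.4 for endocardial and 2.99 for immune cells. With fibroblasts left out, they were 12.3 for immune, 8.16 for vascular endothelial and 6.66 for epicardial cells. Among alternatives added after seeing the data, the ventricular difference was -12.1 points without the 5 clusters of very high mitochondrial share. The UMI ratio of the high clusters of pool 1 was 0.955 without cells above 10% and 1.12 without cells above 15%. Within the high or low clusters, where only the denominator changed, 2 in place of 7 clusters of pool 1 were past 2-fold. The cause of the other differences was not tested. Depth limits small clusters: the floor of 3 cells was 0.451% at E16.5 and 0.346% at E18.5. At 0 cells the exact upper limits were 0.553% and 0.425%.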

Other observations

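Within vascular endothelial and mural cells the lower UMI count at E18.5 was present inside single clusters of pool 1. Vascular clusters 2 and 15 had medians of 11549 and 6835 UMIs, and 14228 and 7875, and mural cluster 11 had 14112 and 6555.5. Mural cells were 2.71% and 4.73% of named cells but 4.11% and 4.22% of their UMIs.

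Immune cluster 37 held 1 cell at E16.5 against 21 at E18.5, a share ratio of 16.1 with a counting interval from 2.17 upwards, and was chosen after its values were seen.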
